A study of Mus musculus with 2 samples.

Results

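The genes described here are 44 regulators of pre-mRNA splicing, taken by symbol from a table of 39017 genes, and all 44 were found once in it. They were grouped by protein family into 12 SR and TRA2 proteins, 6 CLK and SRPK kinases, 8 speckle, RBM and LUC7 proteins, 14 hnRNP and PTB proteins and 4 factors of the 3' splice site. RNA came from mouse bone marrow LSK cells (Lin- Sca-1+ c-Kit+), among which are blood stem cells and multipotent progenitors. One library was made from a pool of 6 miR-146a-/- mice and 1 from a pool of 12 WT mice. All animals were C57BL/6J and 10 to 14 weeks old, and their sex is not given. The libraries differed in the X-linked Xist and in Y-linked genes, as given below. Any effect of sex therefore cannot be told apart from that of genotype. The total RNA was depleted of ribosomal RNA. With 1 library per genotype no difference below has a replicate check, no p-value can be given, and every statement compares the libraries. In such bulk samples fewer cells of a type and less RNA per cell cannot be told apart.

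Splicing removes introns from pre-mRNA, and alternative splicing chooses which exons are kept. SR proteins bind exons through RNA-recognition motifs and promote their inclusion through arginine- and serine-rich tails, while many hnRNPs repress exons. SRPK kinases phosphorylate the tails in the cytoplasm and send SR proteins into the nucleus. CLK kinases phosphorylate them again there and release them from nuclear speckles, the stores of splicing factors. Many of these genes limit their own expression by splicing part of their transcripts into forms with a premature stop or a retained intron. The deposited counts sum all transcripts of a gene, so productive and unproductive forms could not be told apart. In human myelodysplastic syndromes, which arise from blood stem cells, SF3B1, SRSF2, U2AF1 and ZRSR2 are recurrently mutated.

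MicroRNA miR-146a, which the mutant mice lack, pairs with messages through bases 2 to 8, its seed. The mature sequences are shown because miR-146b-5p, whose gene lies on another chromosome, has the same seed. The first lies at chr11:43374435-43374456 on the minus strand and the second at chr19:46342790-46342811 on the plus strand. Capitals mark the seed, and both sequences are from RefSeq (GRCm38.p6).
mmu-miR-146a-5p: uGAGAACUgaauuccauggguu
mmu-miR-146b-5p: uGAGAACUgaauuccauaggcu

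A match to this seed, AGTTCTC, was found in the 3' untranslated region (the longest one annotated) of 6 of the 44 genes, against 12.5% of the 12249 measured protein-coding genes that have such a region. The lines below show each match in capitals with its neighbouring bases, from GENCODE M21 transcripts, so that the genes with a match are visible. Those of Srsf7 and Clk3 begin at bases 1 and 8 of the region, next to the stop codon. Whether any match pairs with the microRNA was not tested.
Srsf6: ggtttgaccaaAGTTCTCtttgttttcag
Srsf7: AGTTCTCaagttcacccg
Tra2b: caagagcaacaAGTTCTCaacaaggtata
Clk3: tcgtctcAGTTCTCtgtgaggcttt
Luc7l3: tcttctacaacAGTTCTCaccttgattgc
Hnrnpa2b1: actatacatttAGTTCTCattcaatacta

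The log2 ratios of these 6 genes, miR-146a-/- over WT, ran from -0.22 for Srsf6 to 0.43 for Clk3, with a median of 0.04. The 38 genes without a match had a median of 0.09. Over the 12249 genes the medians were 0.02 with a match and -0.04 without. Neither of the genes with the most extreme ratios, Clk1 and Srsf1, had a match.

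The deleted gene itself could not check the labels, since Mir146 had 0 counts in both libraries. The libraries held 22231389 counts (miR-146a-/-) and 35069136 counts (WT). In miR-146a-/- 31.7% of counts and in WT 2.27% lay in 5 features with ribosomal RNA sequence. Levels are therefore given as counts per 1000000 (CPM) of an effective library size from TMM, or scaled CPM. TMM sets a trimmed mean of log ratios to 0, on the assumption that most genes do not change. It was run over the 13880 genes with at least 20 summed counts, called measured. By total counts the median of all measured genes was -0.83 in place of -0.01, and the ratios of the 44 genes were all lower by 0.82. Every direction below is thus relative to the bulk of genes, and by total counts 43 of the 44 ratios were negative. Measured against the median of all genes, Clk1 was at 0.88 by TMM and at 0.87 by total counts, and Srsf1 at -0.67 by both. These values had to match, since a change of scaling shifts all genes nearly alike, so they are no check of the scaling. The defining LSK markers were present, with Kit at 728 scaled CPM in miR-146a-/- and 558 in WT, and Ly6a (Sca-1) at 74.7 in miR-146a-/- and 66.8 in WT. Other LSK markers differed in direction, with log2 ratios of -0.19 for Cd34 and -0.23 for Flt3, both with intervals below 0, and 0.97 for Gata2, which was called higher. Of 22 markers of other lineages 11 were measured, and their summed level was 72.4 scaled CPM in miR-146a-/- and 83.2 in WT, most of it Lyz2 and Csf1r. Of these markers 2 were called, Ltf and S100a9 of neutrophils, both lower. Cd3e, Cd3d and Cd8a had 0 counts in both libraries. Other features differed as well: the immediate early gene Fos was at a log2 ratio of 1.78, the X-linked Xist at 3.64, 4 Y-linked genes at -2.75 to -2.33, and the nuclear non-coding RNAs Malat1 and Neat1 at 0.65 and 0.69. Malat1 and Neat1 were chosen after their values were seen. The part of these differences in the values below was not tested.

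Most of the splicing regulators lay close to the bulk of genes, with Clk1 and Srsf1 furthest from it. All 44 were measured, with 301 to 23579 counts each in miR-146a-/- and 979 to 47408 in WT. Calls of higher or lower required that the 95% counting interval of the ratio (Clopper-Pearson) lie wholly beyond 1.5-fold, or 0.58 on the log2 scale. By this rule 1 of the 44 genes, Clk1, was higher, where 5.35% of all measured genes were, and 1, Srsf1, was lower, where 1.53% were. The other 42 were not called. The share called was thus near that of all genes. By the ratio alone, without its interval, the calls were again Clk1 and Srsf1, where 12.6% of all genes were higher and 7.99% lower. Of 10365 protein-coding genes with at least 200 summed counts, 628 were higher and 652 lower by the ratio alone. At 2-fold none of the 44 was called, where 2.12% of all genes were higher and 0.303% lower. By total counts none of the 44 was higher and 28 were lower, where 1.01% and 51.0% of all genes were. The median log2 ratio of the 44 genes was 0.08, with the middle 50% between -0.17 and 0.34, and that of all measured genes was -0.01. Ratios were positive for 27 genes, where 48.8% of all measured genes had a positive ratio, and negative for 17. Intervals lay above 0 for 24 genes and below 0 for 17, where 28.0% and 29.1% of all measured genes did. Among the 10365 protein-coding genes with at least 200 summed counts, intervals lay above 0 for 3019 and below 0 for 3786. Whether an interval excludes 0 depends on the number of counts, and neither set was matched to the 44 genes in counts. These shares therefore cannot show whether the 44 genes differ from other genes. Together the 44 genes held 1.67% of protein-coding counts in miR-146a-/- and 1.72% in WT.

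**Figure D1:**
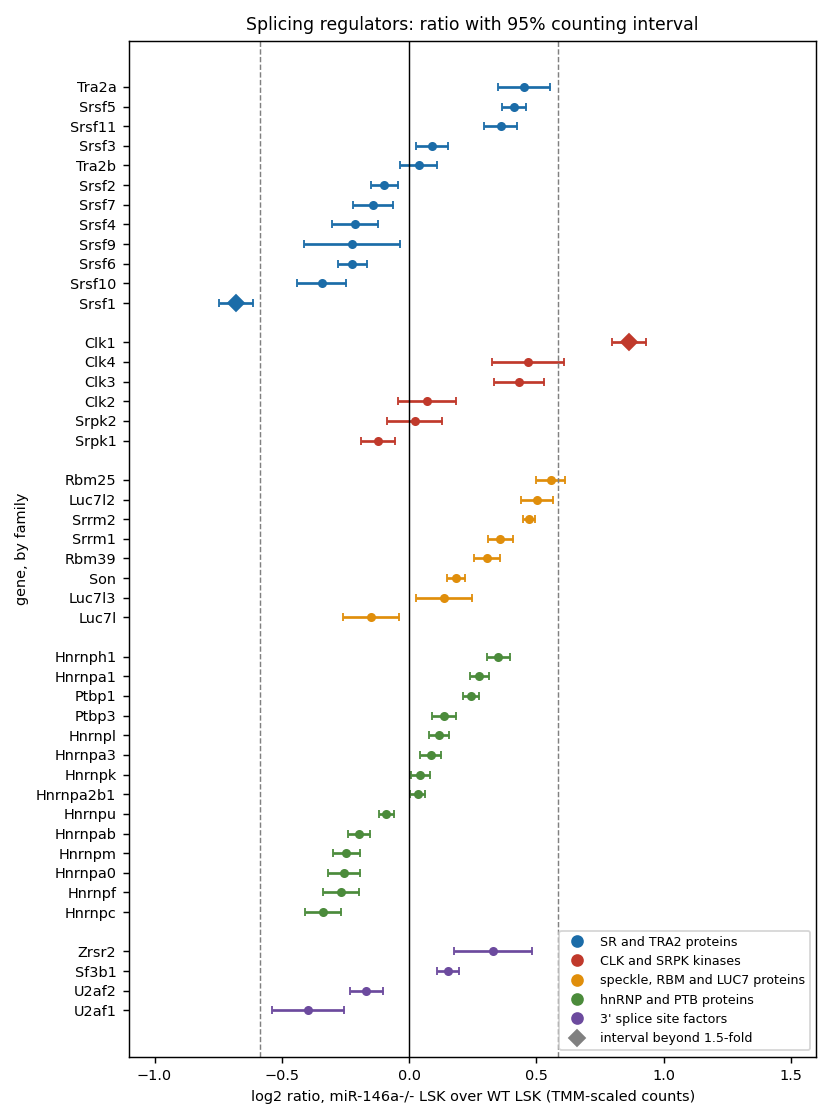
Log2 ratio of TMM-scaled counts, miR-146a-/- LSK over WT LSK (x axis), for each of the 44 genes (y axis) ordered within 5 families; bars are 95% counting intervals of 1 library per genotype, and dashed lines mark 1.5-fold. The intervals of Clk1 (0.80 to 0.93) and Srsf1 (-0.75 to -0.61), drawn as diamonds, lie wholly outside the dashed lines; by total counts all points would lie 0.82 further left.

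Among the kinases Clk1 stood highest of all 44 genes. It lies on chromosome 1 from 58410189 to 58424066 (mm10), and no other annotated gene overlaps it. Clk1 had 3076 counts in miR-146a-/- and 4713 in WT, or 184 and 101 scaled CPM. This is 1.82-fold higher in miR-146a-/- (log2 ratio 0.86, 0.80 to 0.93). Among 10365 protein-coding genes with at least 200 counts, 97.5% had a lower ratio. Its transcripts are known to be stored in the nucleus with introns kept beside a cassette exon, but these counts do not separate that form.

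The near paralog Clk4 was also above the bulk of genes but was not called. It had 628 counts in miR-146a-/- and 1266 in WT, or 37.6 and 27.2 scaled CPM, a log2 ratio of 0.47 (0.33 to 0.61). Clk3 was at 0.43 (0.33 to 0.53), with 1248 counts in miR-146a-/- and 2579 in WT. Clk3 shares 1284 exonic bases with Edc3 on the opposite strand, and whether counting used strand is not given, so its count is uncertain. In all, 10 of the 44 genes overlap an exon of a gene with at least 200 counts, for Hnrnpm on the same strand. They are Clk3, Srpk2, Srsf2, Son, Srrm2, Hnrnpab, Hnrnpk, Hnrnpm, Hnrnpu and Ptbp1. The shared exonic bases were few for Srrm2 (4) and Son (103), and how far the overlaps alter the counts was not tested. Clk2 was at 0.07 (-0.04 to 0.18), an interval that holds 0.

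The SRPK kinases, which act upstream in the cytoplasm, did not share the position of Clk1. Srpk1 had the lowest ratio of the family, -0.12 (-0.19 to -0.05), with 2321 counts in miR-146a-/- and 7043 in WT, or 139 and 151 scaled CPM. Srpk2 was at 0.02 (-0.09 to 0.13), with 934 counts in miR-146a-/- and 2563 in WT. It shares 972 exonic bases with Kmt2e on the opposite strand, which had 4636 counts in miR-146a-/- and 8390 in WT. The family median was 0.25, with 5 of 6 ratios positive, and -0.57 by total counts.

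A ratio between paired genes within a library needs no scaling, so it does not depend on the choice above. There were 1.33 counts of Clk1 per count of Srpk1 in miR-146a-/- and 0.669 in WT, a 1.98-fold difference (1.85 to 2.12, exact 95% counting interval). Between Clk1 and Clk4 the count ratio was 4.90 in miR-146a-/- and 3.72 in WT, 1.32-fold apart (1.18 to 1.47). Between Clk1 and Clk2 it was 3.56 in miR-146a-/- and 2.06 in WT, 1.73-fold apart. Clk1 thus stood higher in miR-146a-/- relative to each of these kinases, by more than the counting error. They belong to 25 pairs set side by side with their values known, as do the pairs below. All 25 intervals excluded an equal ratio in the libraries, which at this depth takes only a small difference.

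The SR proteins split in both directions. Srsf1, an SR protein that binds exonic enhancers and is needed for the viability of many cells, was the lowest of the 44 genes. It lies on chromosome 11 from 88047373 to 88053755. Srsf1 had 2151 counts in miR-146a-/- and 9608 in WT, or 129 and 206 scaled CPM. This is 0.624 of the WT level (0.595 to 0.654; log2 ratio -0.68, -0.75 to -0.61), and 3.74% of protein-coding genes with at least 200 counts had a lower ratio. The bound nearest to 0 lay close to the threshold. The call was lost with scaling over genes of at least 200 counts (-0.64) and when the ratio was adjusted for transcript length and GC (-0.65).

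Clk1 and Srsf1 stand at opposite ends of the 44 genes. There were 1.43 counts of Clk1 per count of Srsf1 in miR-146a-/- and 0.491 in WT, a 2.92-fold difference (2.73 to 3.11). Counts of Clk1 thus exceeded those of Srsf1 in miR-146a-/- and not in WT. Per length of the longest coding transcript Clk1 was above Srsf1 in both libraries, by more in miR-146a-/-. Clk1 was at 102 scaled CPM per kb of transcript in miR-146a-/- and 56.3 in WT, and Srsf1 at 24.0 in miR-146a-/- and 38.5 in WT.

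The other classical SR proteins with a ratio below 0 formed a narrow band. They were Srsf2 (-0.10), Srsf7 (-0.14), Srsf4 (-0.21), Srsf6 (-0.22), Srsf9 (-0.22) and the SR-like repressor Srsf10 (-0.34), each with an interval below 0. Srsf2 had 3848 counts in miR-146a-/- and 11476 in WT, or 230.2 and 246 scaled CPM. Srsf9 was the least abundant of the 44 genes by counts, with 301 in miR-146a-/- and 979 in WT, and its interval ran from -0.41 to -0.03.

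On the other side stood Tra2a, Srsf5 and Srsf11. Tra2a, a partner of SR proteins at exonic enhancers, was the highest of the family at 0.45 (0.35 to 0.56), with 1143 counts in miR-146a-/- and 2328 in WT, or 68.38 and 49.97 scaled CPM. Srsf5 was at 0.41 (0.36 to 0.46), with 5246 and 10990 counts. Srsf5 was also the most abundant of the family per length, at 200.2 scaled CPM per kb in miR-146a-/- and 150.4 in WT. Srsf11 was at 0.36 (0.30 to 0.42). Srsf3, the smallest SR protein, was at 0.09 and Tra2b at 0.04.

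The family median was -0.12, with 5 positive and 7 negative ratios, and -0.94 by total counts. A change of scaling shifts all members alike, so the spread within the family cannot depend on it. Count ratios between members restate that spread. Srsf5 had 1.55 counts per count of Srsf6 in miR-146a-/- while the counts were nearly equal in WT, 1.55-fold apart (1.48 to 1.63). Srsf11 per Srsf10 was 2.65 in miR-146a-/- and 1.63 in WT, 1.63-fold apart. Tra2a per Tra2b was 0.567 in miR-146a-/- and 0.425 in WT, 1.33-fold apart (1.22 to 1.46). Related proteins thus differed from each other by more than the counting error, while the family median lay near that of all genes.

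**Figure D2:**
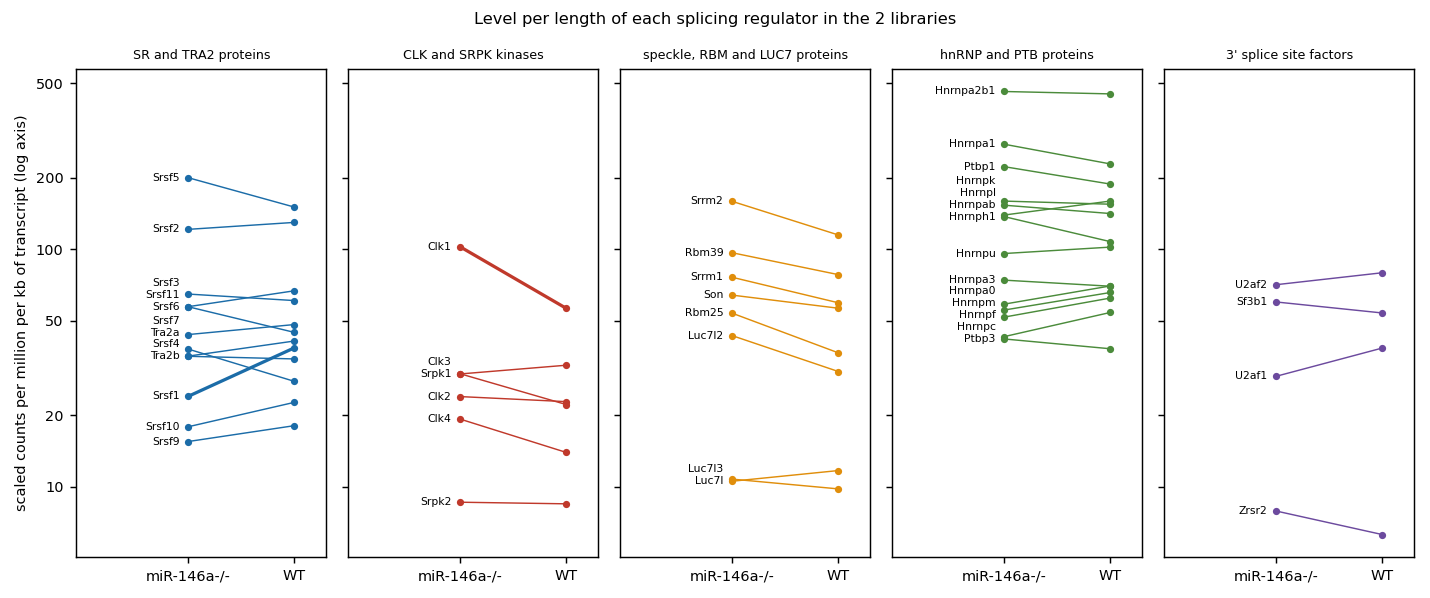
Scaled CPM per kb of the longest coding transcript (log axis) of each of the 44 genes in the miR-146a-/- library (left point) and the WT library (right point), by family, with 1 library per genotype; thick lines mark Clk1 and Srsf1. Clk1 is at 102 and 56.3, Srsf1 at 24.0 and 38.5, and Hnrnpa2b1, the highest gene per length, at 461 and 451.

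Proteins of nuclear speckles and their RBM and LUC7 partners had the highest family median, 0.33, with 7 of 8 ratios positive (median -0.49 by total counts), though none was called. Rbm25, which binds LUC7L3 and guides the choice of upstream splice sites, was the highest at 0.56 (0.50 to 0.61), with 3802 counts in miR-146a-/- and 7209 in WT, or 227 and 155 scaled CPM. Luc7l2, a homolog of a yeast U1 snRNP protein, was at 0.50 (0.44 to 0.57). The speckle scaffold Srrm2, the gene with the most counts of the 44, had 23579 in miR-146a-/- and 47408 in WT and was at 0.47 (0.45 to 0.49). All 3 lay just inside 1.5-fold, and that of Rbm25 crossed it with its upper bound.

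The remaining members lay lower. The coactivator Srrm1 was at 0.36, Rbm39, which works with U2AF at the 3' splice site, at 0.31, the other speckle scaffold Son at 0.18 and Luc7l3 at 0.14. Luc7l was the only one below 0, at -0.15 (-0.26 to -0.04), with 870 counts in miR-146a-/- and 2690 in WT, or 52.1 and 57.7 scaled CPM. The paralogs thus differed, with 3.54 counts of Luc7l2 per count of Luc7l in miR-146a-/- and 2.25 in WT, 1.57-fold apart (1.44 to 1.72). The 8 genes summed to 3052 scaled CPM in miR-146a-/- and 2350 in WT. Many of them have long transcripts, and longer transcripts had higher ratios over all genes. Adjusted for transcript length and GC, the family median was 0.30, below the 0.34 of the kinases, while Srrm2 moved to 0.20 and Son to -0.01.

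The hnRNP and PTB proteins, the family with the highest summed level, had a median near that of all genes. None of 14 was called, and the ratios ran from -0.34 to 0.35 with a median of 0.04, which was -0.03 with no count filter and -0.78 by total counts. Their summed level was 5605 scaled CPM in miR-146a-/- and 5442 in WT. Hnrnpa2b1, which binds and sorts RNA in nucleus and cytoplasm, was the highest of the 44 genes per length, at 461 scaled CPM per kb in miR-146a-/- and 451 in WT. Next were Hnrnpa1, at 277 and 229, and the polypyrimidine tract binding protein Ptbp1, at 223 and 188. The order of these 3 was the same in both libraries.

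Within the family Hnrnph1, a binder of G-rich sequence, was the highest at 0.35 (0.30 to 0.40), with 5567 counts in miR-146a-/- and 12167 in WT, or 333 and 261 scaled CPM. Its relative Hnrnpf was at -0.27 (-0.34 to -0.20). There were 2.68 counts of Hnrnph1 per count of Hnrnpf in miR-146a-/- and 1.75 in WT, 1.53-fold apart (1.45 to 1.63). The lowest was Hnrnpc, which binds uridine tracts and keeps cryptic exons out, at -0.34 (-0.41 to -0.27), with 2039 counts in miR-146a-/- and 7189 in WT, or 122 and 154 scaled CPM. A processed pseudogene nearly identical to part of Hnrnpc, Gm12696, held a further 139 and 578 counts, or 6.82% and 8.04% of those of Hnrnpc, so reads could have been split between them.

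Hnrnpa1, a repressor that opposes Srsf1 at many exons, was at 0.28 (0.24 to 0.31), with 8875 counts in miR-146a-/- and 20427 in WT. Its 9 near-identical copies in the genome held 1.13% of its own counts in miR-146a-/- and 1.06% in WT. Other positive ratios were those of Ptbp1 (0.24), Ptbp3 (0.14), Hnrnpl (0.12), Hnrnpa3 (0.09), Hnrnpk (0.04) and Hnrnpa2b1 (0.03). Below 0 were Hnrnpu (-0.09), Hnrnpab (-0.20), Hnrnpm (-0.25) and Hnrnpa0 (-0.26). Ptbp1 shares 251 exonic bases with Plppr3 on the opposite strand and Hnrnpm 1169 with March2 on the same strand, so their counts are uncertain.

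Factors of the 3' splice site were split evenly, with 2 of 4 ratios on each side of 0 and none called. Their median was -0.01, and -0.83 by total counts. Zrsr2, which serves the minor class of introns, was the highest at 0.33 (0.18 to 0.48), with 511 counts in miR-146a-/- and 1133 in WT, or 30.6 and 24.3 scaled CPM. It is X-linked, and the libraries differed in Xist, as given above, whose part in this ratio was not tested. The median log2 ratio was 0.02 over 470 measured X-linked genes without Xist and -0.02 over 13214 autosomal genes. Sf3b1, the largest subunit of the complex that binds the branch site, was at 0.15 (0.11 to 0.20), with 6211 counts in miR-146a-/- and 15557 in WT, or 372 and 334 scaled CPM.

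The U2AF subunits were both below 0. U2af1, which reads the AG at the end of the intron, was the lowest of these factors at -0.40 (-0.54 to -0.25), with 510 counts in miR-146a-/- and 1871 in WT, or 30.5 and 40.2 scaled CPM. U2af2, which binds the polypyrimidine tract beside it, was at -0.17 (-0.23 to -0.10). Zrsr2 and U2af1, which are related proteins, had nearly equal counts in miR-146a-/-, against 0.606 counts of Zrsr2 per count of U2af1 in WT, 1.65-fold apart (1.43 to 1.91). Adjusted for transcript length and GC, U2af1 was at -0.17, and its transcript of 1046 bases was the shortest of the 44.

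Other genes of splicing were set beside these families from 10 lists of 182 genes, of which 172 were measured. Of the 172, 1 was called higher, where 5.35% of all measured genes were, and 1 lower, where 1.53% were, and the median was -0.03. The highest was Ccnl1, which encodes cyclin L1, an RS-rich partner of the CDK11 kinases, with 4762 counts in miR-146a-/- and 6051 in WT and a log2 ratio of 1.13 (1.08 to 1.19). The lowest was the spliceosomal cyclophilin Ppil1, with 390 and 1873 counts and a log2 ratio of -0.78 (-0.95 to -0.63).

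Several lists of core spliceosome proteins had lower medians than the 5 families. The Sm and LSm proteins, which form the rings of the snRNPs, had a median of -0.39, with 3 of 14 positive. Those of the tri-snRNP had a median of -0.26, those of the U2 snRNP and branch site -0.22 and those of the catalytic complex -0.16. The U1 snRNP and minor spliceosome lists did not lie lower, with medians of 0.01 and 0.04. Sm and LSm genes have short transcripts, and adjusted for transcript length and GC their median was -0.24. The same adjustment gave -0.22 for the tri-snRNP, -0.10 for the U2 snRNP and branch site and -0.06 for the catalytic complex. Other RS-rich proteins and kinases had a median of 0.10 over 32 measured genes, hnRNP-related proteins 0.10 over 23, and proteins of the exon junction and of nonsense-mediated decay, which removes transcripts with premature stops, -0.02 over 15. By total counts the unadjusted medians would all be lower by 0.82.

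**Figure D3:**
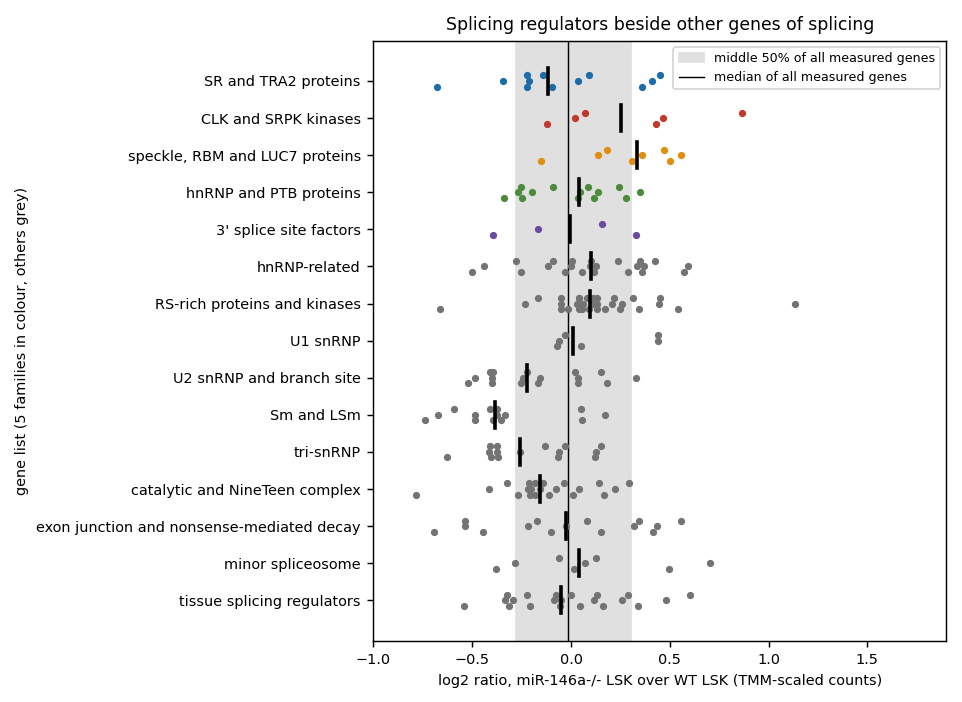
Log2 ratio, miR-146a-/- LSK over WT LSK, of each measured gene (points) in the 5 families (coloured) and in 10 other lists of splicing genes (grey); black bars are list medians, the vertical line is the median of all measured genes and the shaded band their middle 50%, with 1 library per genotype and TMM scaling; by total counts all would lie 0.82 further left. The medians run from 0.33 for speckle, RBM and LUC7 proteins to -0.39 for Sm and LSm proteins, and Ccnl1 is the point at 1.13.

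Splicing regulators are annotated with many unproductive transcripts, and the ratios of the 44 genes went with this annotation. At least 1 transcript subject to nonsense-mediated decay is annotated in GENCODE M21 for 35 of the 44 genes (79.5%), against 31.0% of protein-coding genes with at least 200 counts. Retained-intron transcripts numbered 5 or more for 12 of the 44 (27.3%), against 8.51%. The 12 genes had a median log2 ratio of 0.28 and ran from -0.12 for Srpk1 to 0.86 for Clk1. Hnrnpk, with 13 such transcripts the most of the 44 genes, was at 0.04. With 3 to 4 such transcripts the median was 0.05 over 14 genes, with 1 to 2 it was -0.10 over 11, and with none it was -0.22 over 7. Class medians therefore ran higher where more retained-intron transcripts are annotated. Single genes departed from this order, as did Hnrnph1, at 0.35 with none annotated.

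Across the 44 genes, Spearman's rho between this number and the ratio was 0.48 and Pearson's r was 0.41. All points share the same libraries, and genes are not independent replicates. Among protein-coding genes with at least 200 counts rho was 0.00, and medians ran from -0.06 to -0.02 over the same classes. In the other splicing lists the medians were -0.08 with none, -0.02 with 1 to 2, 0.06 with 3 to 4 and 0.04 with 5 or more. Transcript length did not order the 44 genes, with a rho of 0.05, while over all protein-coding genes rho was 0.29. The number of annotated transcripts as a whole gave a rho of 0.44 in the 44 genes, so retained introns were not separable from how many transcripts are annotated.

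**Figure D4:**
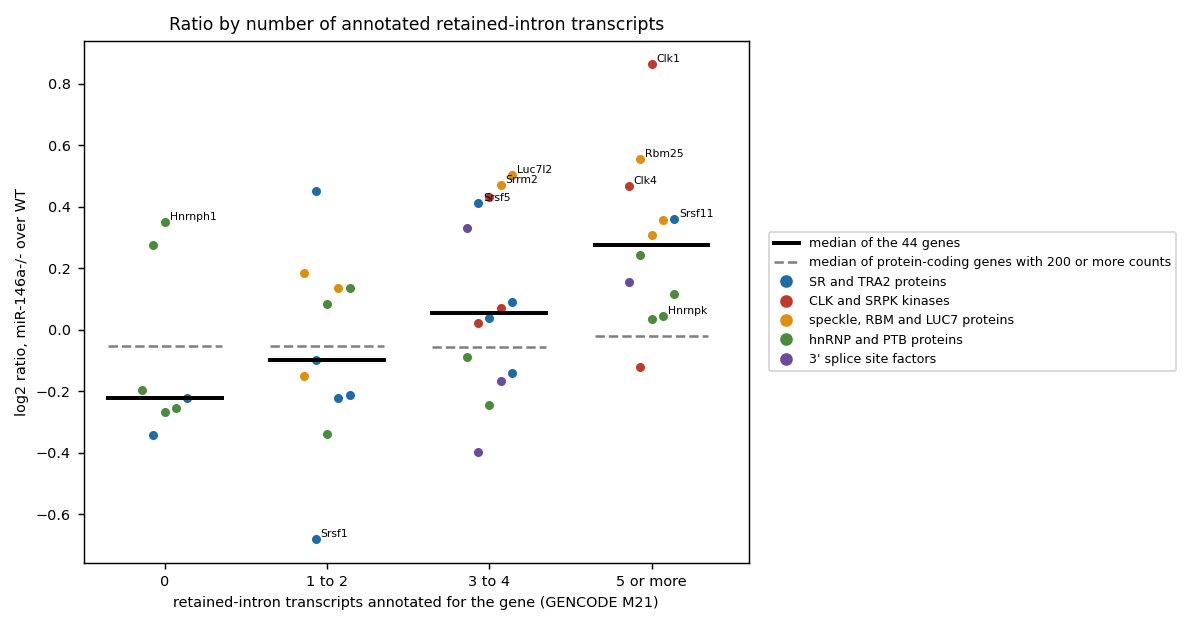
Log2 ratio, miR-146a-/- over WT (y axis), of the 44 genes by the number of retained-intron transcripts annotated for each gene in GENCODE M21 (x axis, 4 classes); points are genes coloured by family, black bars their class medians and dashed bars the medians of protein-coding genes with 200 or more counts. The black bars run from -0.22 to 0.28 and the dashed bars from -0.06 to -0.02; all would lie 0.82 lower by total counts.

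Promoters from RefSeq (GRCm38.p6), spanning 250 bases before to 50 after the start, were listed for 40 of the 44 genes, with none for Clk1. The cyclic AMP response element TGACGTCA, a palindrome, occurred in the promoters of Clk4 and Tra2a, or 2 of 40, against 3.57% of 9735 measured protein-coding genes with a promoter. The AP-1 motif TGAGTCA, on either strand, occurred in that of Hnrnpa1 alone, against 4.38%. The EGR motif GCGTGGGCG, on either strand, occurred in that of Hnrnpf alone, against 1.51%. An NF-kB motif of fixed letters was in 0 of 40, against 0.236%. The short core TGACG, on either strand and also inside the longer element, was in 25 of 40 (62.5%), against 35.4%. It was in the promoters of Srsf1, Clk2, Clk3 and Clk4 among others, with ratios of either sign. A match is a description of letters and not of binding.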

How the data were processed

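The authors deposited whole-number counts of reads per Ensembl gene, with no normalization. Per the file headers, alignments included junctions on the genome and duplicates were flagged. STAR 2.5.3a, Salmon 0.9.0 and mm10 appear in the submitters' processing notes with no role stated. Not given in the sources used here are the counter, its annotation, its use of strand and whether duplicates were counted. Names, positions and transcripts came from GENCODE M21 (37693 of 39017 identifiers matched).

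TMM scaling (edgeR 4.0.16 under R 4.3.3) was run over genes with at least 20 summed counts. Since there is 1 library per genotype, no test was run. Log2 ratios used a prior count of 0.5, and intervals are exact 95% binomial ones converted to ratios. They cover counting error only: without molecular identifiers, reads are not independent molecules. Levels per kb used the longest coding transcript, while the counts sum all transcripts of a gene. Ranks of genes per length are therefore approximate. Length and GC adjustment of a protein-coding gene subtracted the median ratio over that gene and its 200 nearest protein-coding genes. Near-identical copies were sought with BLAST 2.17.0 (at least 90% identity over 50% of the shorter transcript). Statistics other than scaling used Python 3.11.15 with SciPy 1.17.1. The procedure was tested on simulated libraries that differed in changed genes and depth and varied by counting error only. That test cannot show how scaling or intervals perform under the gap in ribosomal RNA counts seen here.

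The 44 genes, the other lists, the pairs and the annotation features were chosen with earlier results of these data known. All 44 genes were named. From the other lists, only called genes were named, of those that the naming rule allows. Alternatives were other scalings (DESeq2 1.42.0 size factors, upper quartile, total counts, protein-coding genes alone), count filters, thresholds, a prior count of 5, thinning of WT counts, the length and GC adjustment and list means.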

Additional observations from a re-analysis of the deposited data

How the results depend on the processing

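No paired analysis was possible because each genotype has 1 library. By total counts 0 of the 44 genes were higher and 28 lower, against 140 and 7077 of all measured genes, and the medians were -0.74 over the 44 genes, -0.94 (SR and TRA2), -0.57 (kinases), -0.49 (speckle, RBM and LUC7), -0.78 (hnRNP and PTB) and -0.83 (3' splice site). With at least 200 counts 1 was higher and 0 lower, against 491 and 130 of all genes, and the hnRNP and PTB median was 0.076. With no filter 322 of all genes were lower, and the medians were 0.011 over the 44 genes, -0.19 (SR and TRA2), 0.27 (speckle, RBM and LUC7), -0.028 (hnRNP and PTB) and -0.074 (3' splice site). At 2-fold 0 of the 44 were higher and 0 lower, against 294 and 42 of all genes, and by the point ratio 1750 and 1109 of all genes were called. After the length and GC adjustment 0 of the 44 and 125 of all genes were lower, and the medians were 0.13 over the 44 genes, -0.0022 (SR and TRA2) and 0.13 (hnRNP and PTB). As means, SR and TRA2 proteins were at -0.047 and hnRNP and PTB proteins at -0.0075. The filters change both the genes entered and the scaling, the 2-fold threshold is stricter by construction, and for the rest the cause was not tested. Size factors of DESeq2, upper-quartile scaling, TMM over protein-coding genes, a prior count of 5 and thinning of WT counts left the ratios of all 44 genes within their intervals, and Clk1 was called higher under every alternative except total counts and 2-fold. Of the 44 genes Srsf9 has the fewest counts and thus the widest interval.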
